A study of Homo sapiens with 6 samples.

Results

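The caveolae genes SDPR, CAV1, CAV2, PTRF, PRKCDBP, EHD2 and PACSIN2 were followed in RNA-seq of PC3 cells, a human prostate cancer line established from a metastasis to bone. They are 7 of the 24462 gene symbols in the count tables, and each symbol had 1 row. The list holds the caveolins, the cavins under their older symbols (PTRF is cavin-1, SDPR cavin-2 and PRKCDBP cavin-3) and a pair of membrane-bending partners. SDPR was selected on its own fold change between these same libraries, so its difference is given as a description with no test. The other 6 were added for their function, though with earlier results of these data known. The samples were 3 cultures transfected with non-targeting siRNA (Control) and 3 transfected with siRNA against CITED2 (si-CITED2), a transcriptional co-regulator that binds CBP and p300. Every culture was grown in RPMI1640 with 10% serum, received siRNA at 80 nM and was kept for 72 h. The design compares 1 line and 1 kind of knockdown with 1 control. The labels number the samples but do not say that the cultures were separate. The study states that the experiments were independent, and if the libraries were technical repeats the p-values would measure technical spread alone.

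Caveolae are small flask-shaped pits of the plasma membrane, rich in cholesterol and sphingolipids. Caveolins are inserted in the membrane and oligomerize, and cavins assemble on them from the cytosol as a coat. EHD2 is an ATPase that sits at the neck and holds the pit at the surface, and PACSIN2 bends membrane through its F-BAR domain. Caveolae flatten under stretch and so buffer membrane tension. PC3 is among the prostate cancer lines known to express caveolin-1.

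Total counts ranged from 19508925 to 28936374 per library. The targeted CITED2 mRNA did not fall in si-CITED2. It was counted 966, 1108 and 657 times in Control and 893, 964 and 898 times in the libraries labelled si-CITED2, and the normalized level was 1.19-fold higher in the latter (log2 fold change 0.24 ± 0.07, adjusted p = 0.0363 in edgeR's quasi-likelihood test). This call was lost in 4 of the 6 fits that each left out 1 library, with values from 0.17 to 0.29. The mRNA thus went against the label, and si-CITED2 means from here on the libraries so labelled. The study itself checked the knockdown on the protein, by immunoblot, which these counts cannot show. Were the labels exchanged, every direction given here would turn. KRT8, KRT18, EPCAM and VIM, which PC3 cells express, had at least 1735 counts in every library, and the luminal gene KLK3 had at most 2. The former were not level between the groups. KRT8, KRT18 and VIM were higher in si-CITED2 (log2 fold change 0.24, 0.18 and 0.26, adjusted p = 0.00260, 0.0267 and 0.000655 in edgeR). EPCAM was lower there (-0.33, adjusted p = 0.00110 in edgeR). The 5 endothelial markers had at most 11 counts each, and their summed normalized count was 14.1 to 22.5 in Control and 14.3 to 21.9 in si-CITED2. Among them CDH5 had 7, 9 and 4 counts in Control and 2, 1 and 0 in si-CITED2, without overlap, and its part in any result was not tested. The 4 adipocyte markers summed to 39.5 to 54.1 in Control and 38.9 to 50.6 in si-CITED2. The 6 fibroblast and smooth muscle markers summed to 68.2 to 110.3 and to 88.9 to 99.6. Most of that sum was MYH11, with 100, 127 and 46 counts in Control and 66, 80 and 65 in si-CITED2. DCN and LUM had no more than 2 counts in any library. PDGFRA had 1, 1 and 2 counts in Control and 11, 8 and 7 in si-CITED2, and its part was not tested either.

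The promoters of SDPR and of the caveolins are shown because SDPR stood apart from its partners in the counts. RefSeq (GRCh38.p14) gave promoter windows for 5 of the 7 genes, SDPR, CAV1, CAV2, EHD2 and PACSIN2. The stretches below are the 250 bases before the annotated start, 5′ to 3′ on the strand of the gene. Capitals mark GGAATG, the core recognized by TEAD factors, and GGGCGG, the GC box bound by Sp1, each searched on both strands. SDPR lies at chr2:191847089-191847338 on the minus strand, CAV1 at chr7:116524759-116525008 and CAV2 at chr7:116499488-116499737, both on the plus strand.
SDPR: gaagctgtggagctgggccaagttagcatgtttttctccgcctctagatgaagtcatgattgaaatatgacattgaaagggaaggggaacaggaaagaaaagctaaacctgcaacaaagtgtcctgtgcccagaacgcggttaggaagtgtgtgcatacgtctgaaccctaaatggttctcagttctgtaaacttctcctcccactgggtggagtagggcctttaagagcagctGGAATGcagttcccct
CAV1: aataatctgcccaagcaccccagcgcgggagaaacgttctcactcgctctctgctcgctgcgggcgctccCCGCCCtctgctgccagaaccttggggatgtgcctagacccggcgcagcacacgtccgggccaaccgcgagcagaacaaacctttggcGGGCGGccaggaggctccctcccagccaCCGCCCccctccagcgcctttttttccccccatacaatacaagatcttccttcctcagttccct
CAV2: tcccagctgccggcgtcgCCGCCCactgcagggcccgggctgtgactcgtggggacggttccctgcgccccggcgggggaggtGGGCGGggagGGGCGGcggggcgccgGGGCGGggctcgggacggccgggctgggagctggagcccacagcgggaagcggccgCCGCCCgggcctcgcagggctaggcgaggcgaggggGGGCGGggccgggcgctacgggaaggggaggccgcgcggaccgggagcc
For CAV1 and CAV2 the most upstream of the annotated windows is printed.

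The SDPR promoter held 4 CpG and 48.0% G and C. Of the 35116 promoter windows in the table, 34.3% had as few CpG and 28.7% as low a GC content. The printed CAV1 window held 18 CpG and 63.6% G and C, the CAV2 window 35 CpG and 83.2%, and the EHD2 window 20 CpG and 69.6%. PACSIN2 was like SDPR in 5 of its 6 windows, with 2 to 4 CpG, and held 24 CpG and 68.0% G and C in the other. GGAATG occurred once before SDPR, 16 bases from the start, and 11.9% of all windows held it. It also occurred in 4 of the 6 PACSIN2 windows, and in none of CAV1, CAV2 or EHD2. GGGCGG was found 3 times in the printed CAV1 window, 6 times in that of CAV2, once in EHD2 and not before SDPR, against 42.6% of all windows with at least 1 match. PACSIN2 held it 2 times in the window with 24 CpG and, like SDPR, not in its other windows. CAGACA, a SMAD-binding element, and CCAAT, the box bound by NF-Y, were also searched on both strands and were held by 13.6% and 32.0% of all windows. Neither was found before SDPR or in any window of CAV1, CAV2 or EHD2, so their absence was not particular to SDPR. Both occurred among the PACSIN2 windows. These matches describe the letters of the windows. GENCODE 29 places the outermost SDPR start 167 bases further upstream, which puts its GGAATG match inside the gene. The outermost start lies 224 bases upstream for the printed CAV1 window and 212358 for that of CAV2. For 5 of the 6 PACSIN2 windows it lies 54876 to 68104 bases upstream. What counts as before the start thus depends on the annotation.

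The caveolins were examined first. CAV1, the main structural protein of caveolae outside muscle, did not pass the test and was level in both groups. Its gene lies on chromosome 7 of GRCh38 at 116524785 to 116561184. The normalized count, which is the count per TMM-scaled library size at the average size of the 6 libraries, was 5023, 4627 and 4542 in Control and 4404, 4532 and 4829 in si-CITED2. The groups overlapped, and the highest and the lowest library were Control replicate 1 and si-CITED2 replicate 1. The log2 fold change was -0.04 ± 0.05 (adjusted p = 0.652 in edgeR), with a 95% interval from -0.16 to 0.07. A change beyond 0.896-fold or 1.05-fold lay outside that interval.

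CAV2, which forms hetero-oligomers with caveolin-1 and needs it to reach the surface, was level too. Its gene ends 16243 bases before CAV1 on the same strand, with no annotated protein-coding gene between them. Normalized counts were 2091, 2093 and 1946 in Control and 2116, 1931 and 2014 in si-CITED2. The ranges overlapped, and the log2 fold change was -0.02 ± 0.06 (adjusted p = 0.870 in edgeR, 95% interval -0.14 to 0.10). Within a library, the ratio of CAV1 to CAV2 counts was 2.40, 2.21 and 2.33 in Control and 2.08, 2.35 and 2.40 in si-CITED2. Its mean log2 value differed by -0.03 between the groups, less than the SD of 0.06 in Control and 0.11 in si-CITED2 (exact permutation test, two-sided p = 0.8). The muscle caveolin CAV3 had no count in any library. A count of 0 allows up to 3 counts, between 0.104 and 0.154 CPM (counts scaled to a common library total), by counting error alone.

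The cavins did not move as a unit. PTRF, the cavin without which caveolae do not form, rose in si-CITED2, SDPR was far lower there, and PRKCDBP did not pass the test. PTRF lies on chromosome 17 at 42402452 to 42423517 of GRCh38, on the minus strand. Its normalized count was 10500, 9614 and 9271 in Control and 11500, 11730 and 11480 in si-CITED2. Every si-CITED2 library was above every Control library, and the si-CITED2 values were close together. The increase was 1.18-fold (log2 fold change 0.24 ± 0.05, adjusted p = 0.00336 in edgeR, higher in 3 of 3 libraries). The adjusted p stayed at or under 0.0307 in all 12 alternative fits, with values from 0.20 to 0.29.

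SDPR, a phosphatidylserine-binding cavin that is a substrate of protein kinase C and helps to shape caveolae, had the large difference for which it was chosen. Its gene lies on chromosome 2 at 191834302 to 191847255 of GRCh38, on the minus strand. It was counted 818, 774 and 558 times in Control and 159, 207 and 231 times in si-CITED2. Normalized counts were 727, 623 and 657 in Control and 193, 198 and 253 in si-CITED2. The groups were far apart, and si-CITED2 replicate 3 was the highest of its group. The mean was 669 ± 53.0 in Control and 215 ± 33.4 in si-CITED2 (SD, n = 3), or 32.1% of the Control level. The log2 fold change was -1.64 with a standard error of 0.11, the 6th lowest value of the 16314 genes tested. Leaving out single libraries gave -1.77 to -1.57. Whether fewer cells expressed SDPR or each cell held less of its mRNA cannot be told apart in bulk RNA.

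PRKCDBP, a cavin that binds protein kinase C delta, had the fewest counts of the 7 members. It lies on chromosome 11 at 6318946 to 6320647, on the minus strand. Normalized counts were 98.7, 102.2 and 83.5 in Control and 86.2, 78.4 and 95.3 in si-CITED2. These ranges overlapped. The log2 fold change was -0.14 ± 0.16 (adjusted p = 0.626 in edgeR), and the 95% interval from -0.48 to 0.20 was the widest of the members and reached down to 0.716-fold. The muscle cavin MURC (cavin-4) had 65 to 96 counts per library and a log2 fold change of 0.14 ± 0.16 (adjusted p = 0.619 in edgeR).

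**Figure D1:**
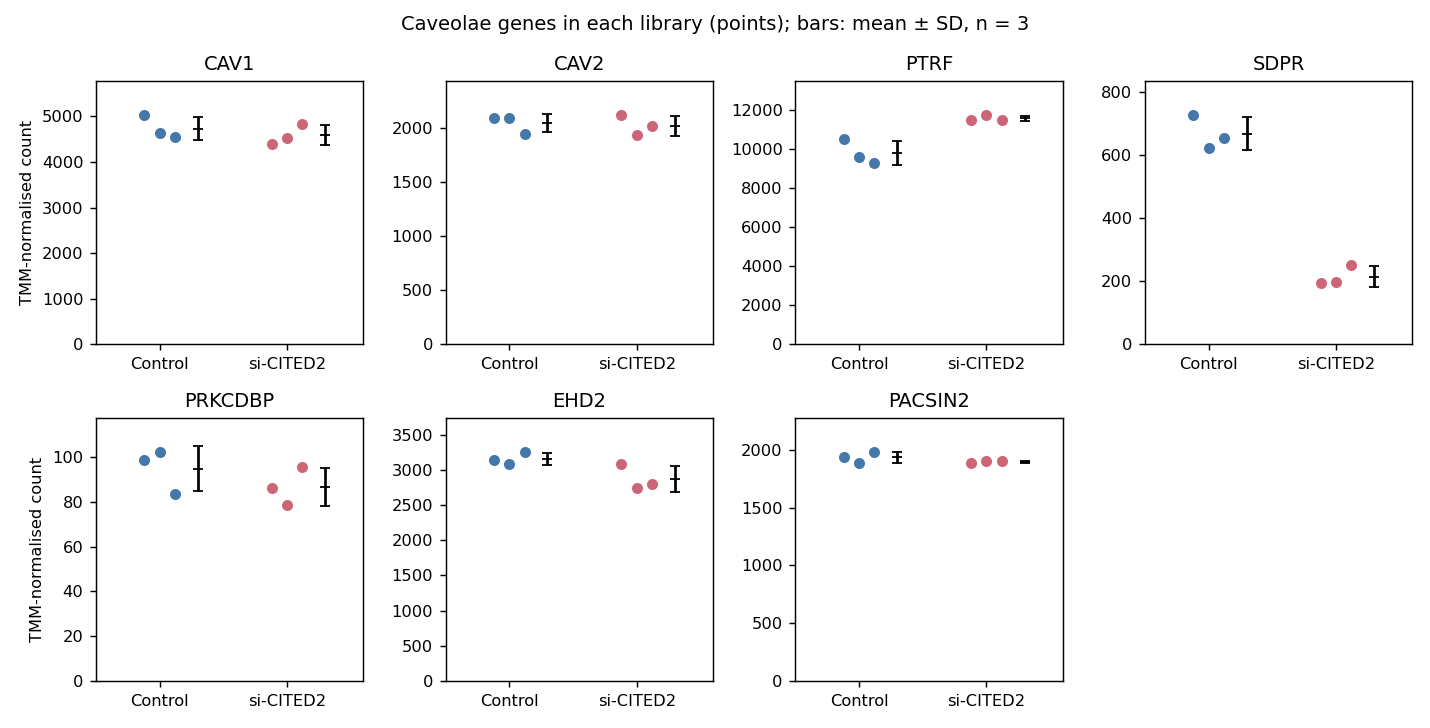
TMM-normalized count of each caveolae gene (vertical axes, all from 0) in the 3 Control and 3 si-CITED2 libraries, with points for libraries and bars for the mean ± SD. SDPR sits at 193 to 253 in si-CITED2 and 623 to 727 in Control, PTRF is higher in every si-CITED2 library, and CAV1, CAV2, PRKCDBP and PACSIN2 overlap.

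PTRF, SDPR and PRKCDBP were then compared with each other per kb of annotated exon (union of exons in GENCODE 29). MURC, at 30.3 normalized counts per kb in Control and 33.5 in si-CITED2, was left out of these sums. PTRF held 90.1, 90.2 and 90.0% of the sum of the 3 genes in Control and 95.9, 96.1 and 95.1% in si-CITED2. The SDPR share was 7.39, 6.93 and 7.56% in Control and 1.91, 1.92 and 2.49% in si-CITED2. The PRKCDBP share was 2.55, 2.89 and 2.44% in Control and 2.17, 1.94 and 2.38% in si-CITED2. All 3 shares are of a sum that holds SDPR, so they carry the value for which SDPR was chosen. SDPR was thus above PRKCDBP in every Control library and about level with it in the si-CITED2 libraries. The sum of the 3 genes per kb was 2840 ± 184 normalized counts in Control and 3157 ± 27.8 in si-CITED2 (SD, n = 3). The sum of CAV1 and CAV2 per kb was 1782 ± 84.2 and 1737 ± 56.2. The lower SDPR level therefore stood beside a sum that was not lower, since most of it was PTRF.

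Ratios within a library do not depend on the scaling between libraries. PTRF counts were 2.09, 2.08 and 2.04 times those of CAV1 in Control and 2.61, 2.59 and 2.38 times in si-CITED2. All 3 si-CITED2 ratios were above all Control ratios, by 0.29 on the log2 scale (exact permutation test, two-sided p = 0.1, the smallest that 3 against 3 samples allow). The ratio of PRKCDBP to PTRF was 0.773-fold as high in si-CITED2, again without overlap (exact permutation p = 0.1). PTRF, its denominator, had risen by 0.24 on the log2 scale. PRKCDBP alone was at -0.14 ± 0.16 with overlapping groups and did not pass the test. SDPR counts were 0.0692, 0.0648 and 0.0708 of PTRF counts in Control and 0.0168, 0.0169 and 0.0220 in si-CITED2, a description that carries the value for which SDPR was chosen.

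**Figure D2:**
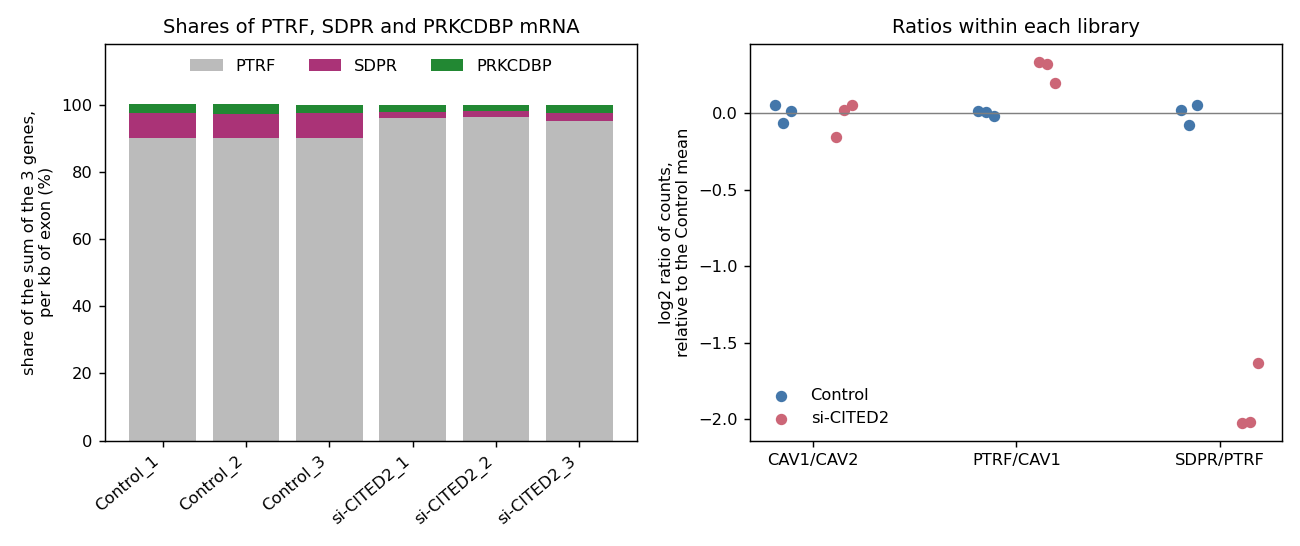
Left, share of PTRF, SDPR and PRKCDBP in the sum of the 3 genes per kb of exon (%) for each library, with SDPR at 6.93 to 7.56% in Control and 1.91 to 2.49% in si-CITED2. Right, log2 ratio of counts of gene pairs within each library, relative to the mean of the Control libraries: CAV1/CAV2 overlaps, PTRF/CAV1 is higher in si-CITED2 by 0.29 and SDPR/PTRF differs by -1.89.

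The partners at the neck and rim of caveolae were examined next. EHD2 lies on chromosome 19 at 47713343 to 47743134, on the plus strand. Its normalized count was 3144, 3089 and 3256 in Control and 3085, 2748 and 2797 in si-CITED2. The groups did not overlap, although si-CITED2 replicate 1 came within a few counts of the lowest Control library. The log2 fold change was -0.14 ± 0.05 and did not pass the test (adjusted p = 0.101 in edgeR). Without si-CITED2 replicate 1 it was -0.19 and passed (adjusted p = 0.0236 in edgeR), while the adjusted p in all 12 alternatives ranged from 0.0236 to 0.336.

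PACSIN2 lies on chromosome 22 at 42835412 to 43015145, on the minus strand, and its annotated span overlaps ARFGAP3 on the same strand. Normalized counts were 1936, 1886 and 1981 in Control and 1889, 1903 and 1903 in si-CITED2, and the groups overlapped. The log2 fold change was -0.03 ± 0.05 (adjusted p = 0.795 in edgeR), with a 95% interval from -0.13 to 0.08.

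Of the 6 members other than SDPR, 1 passed an adjusted p of 0.05, with a higher level. Over all 16314 genes tested, 17.4% passed, 8.09% lower and 9.36% higher in si-CITED2, so this count was near the background. Of the same 6, PTRF and EHD2 did not overlap between the groups, against 32.5% of all genes. All 7 members passed the filter on low counts. GENCODE 29 places another gene over part of 6 of the 7, PTRF being the exception, on one strand or the other. How reads shared with such partners were counted is not given in the sources used here. The median log2 fold change was -0.04 over the 7 members and -0.04 without SDPR, against -0.001 over all genes tested. The member differences beside all genes show SDPR in the left tail and the other members within 0.24 of 0.

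**Figure D3:**
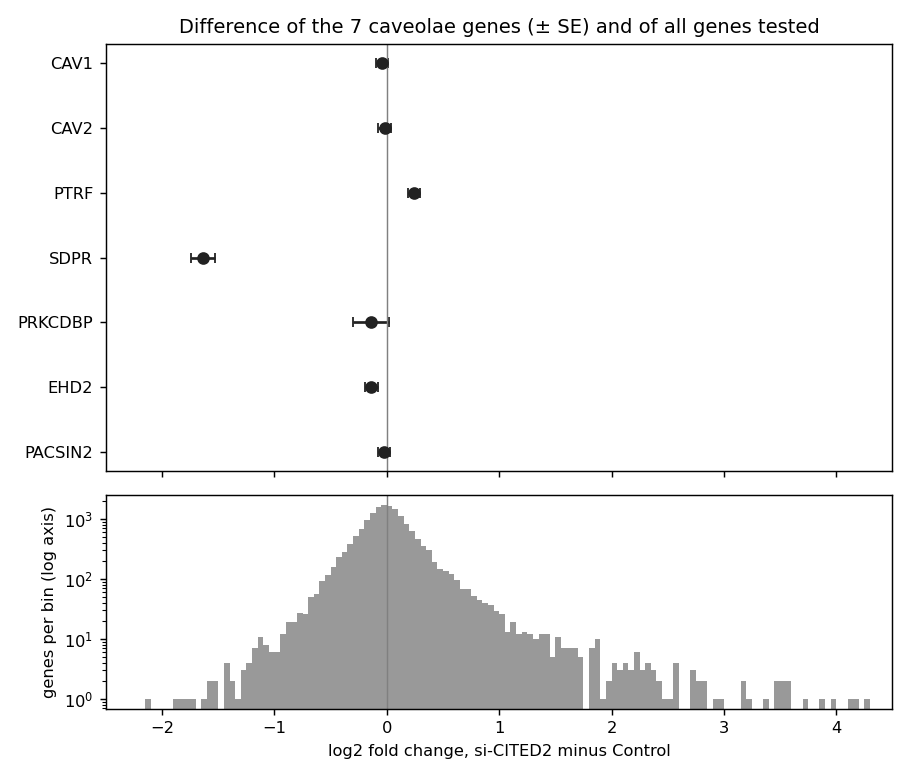
Top, log2 fold change (si-CITED2 minus Control) of the 7 caveolae genes, with bars for the standard error. Bottom, number of genes per bin (log axis) over all 16314 genes tested: SDPR at -1.64 lies in the sparse left tail, and the other members lie between -0.14 and 0.24.

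By level per kb of exon, the order in Control was PTRF (2559 ± 166 normalized counts per kb, SD, n = 3), CAV1 (1288 ± 70.0), EHD2 (882 ± 23.7), PACSIN2 (550 ± 13.7), CAV2 (494 ± 20.4), SDPR (207 ± 16.4) and PRKCDBP (74.7 ± 7.82). The order was the same in si-CITED2 down to CAV2. At its end SDPR, at 66.5 ± 10.3 per kb, and PRKCDBP, at 68.2 ± 6.69, did not differ beyond their spread. PACSIN2 and CAV2 were the closest neighbours above them, and their order rests on the annotated exon lengths.

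The genes whose profile over the 6 libraries was nearest to that of SDPR were ACOX2, IL24, FAM46B, AQP3 and LINC00239. Likeness was the root-mean-square distance between log2 CPM values, each gene centred on its own mean. ACOX2, a peroxisomal oxidase of branched fatty acids and bile acid intermediates, was nearest at 0.188. Its normalized count was 180 ± 31.6 in Control and 70.4 ± 5.44 in si-CITED2 (SD, n = 3). The cytokine IL24 (0.240) and the water and glycerol channel AQP3 (0.292) were also lower in si-CITED2. Genes picked for likeness to SDPR, itself chosen for its difference, are bound to share that direction. No other gene lay within a distance of 0.2 of SDPR. For CAV1 the nearest were DDA1 and ATP6V1E1, and 10880 genes lay within that distance of its almost flat profile. For PTRF the nearest were MANBAL, DNAJB11 and SNF8, at 0.0101 to 0.0128.

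A list of 40 genes that act around caveolae was read from the same fit, of which 38 were tested. It too was chosen with earlier results of these data known. In si-CITED2, 10 rose and 2 fell, against the 9.36% and 8.09% of all genes. The median log2 fold change over the 38 was 0.09, against -0.001 over all genes. These counts describe the list alone.

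Among the other family members, EHD1, an EHD ATPase of endosomal recycling, rose from 1683 ± 21.1 to 2145 ± 44.6 normalized counts (log2 fold change 0.35, adjusted p = 0.000115 in edgeR). PACSIN3, the muscle-enriched relative of PACSIN2, rose from 1196 ± 40.5 to 1589 ± 46.7 (0.41, adjusted p = 6.64e-05). EHD3, EHD4, PACSIN1 and MURC did not pass.

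Of the flotillin and stomatin genes, scaffolds of other membrane domains, 1 of 5 passed the test, near the 17.4% of all genes. FLOT1 (flotillin-1) fell from 7577 ± 277.5 to 6100 ± 489 normalized counts (log2 fold change -0.31, adjusted p = 0.000892 in edgeR). Its partner FLOT2 was 3430 ± 76.8 in Control and 3186 ± 112 in si-CITED2 and did not pass (adjusted p = 0.161).

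Of the 10 genes of caveola dynamics, kinases and actin links, 4 rose and the other 6 did not pass. Of all genes, 9.36% rose. ABL1, a tyrosine kinase that links caveolae to stress fibres, had the largest difference of the list, from 3000 ± 98.5 to 5100 ± 67.2 normalized counts (log2 fold change 0.77 ± 0.05, adjusted p = 6.12e-09 in edgeR). FLNA, the actin crosslinker that tethers caveolae, rose from 30180 ± 1346 to 37460 ± 681 (0.31, adjusted p = 0.000157). SRC, the kinase that phosphorylates caveolin-1, rose by 0.24 (adjusted p = 0.0279) and the GTPase RHOA by 0.17 (adjusted p = 0.0304). The scaffold receptor ROR1, which binds CAV1 and PTRF, had a log2 fold change of -0.21 and did not pass (adjusted p = 0.0513). PRKCA and PRKCD, the kinases that SDPR and PRKCDBP bind, and the fission GTPase DNM2 did not pass either, with differences of 0.03, 0.09 and -0.04.

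In the group that ubiquitinates and sorts caveolin-1, ANKRD13A rose by 0.23 (adjusted p = 0.00295 in edgeR) and ANKRD13D fell by 0.31 on the log2 scale (adjusted p = 0.00821). The segregase VCP and its adaptor UBXN6, which act on caveolin-1 oligomers, did not pass, at 0.12 and 0.06.

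Of 11 tested genes whose proteins are reported in caveolae, 3 rose in mRNA and the other 8 did not pass, against 9.36% of all genes that rose. BMPR2, the type II receptor of bone morphogenetic proteins, rose from 2081 ± 135 to 3288 ± 319 normalized counts (log2 fold change 0.66 ± 0.07, adjusted p = 2.52e-06 in edgeR). TGFBR1 rose by 0.37 (adjusted p = 0.000294) and EGFR by 0.36 (adjusted p = 0.000427). The endothelial synthase NOS3, a classic client of caveolin-1, had 3 to 8 counts per library and was not tested. CD36 and AQP1 had at most 21 counts, and their differences of -0.66 and 0.57 did not pass (adjusted p = 0.401 and 0.469 in edgeR).

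**Figure D4:**
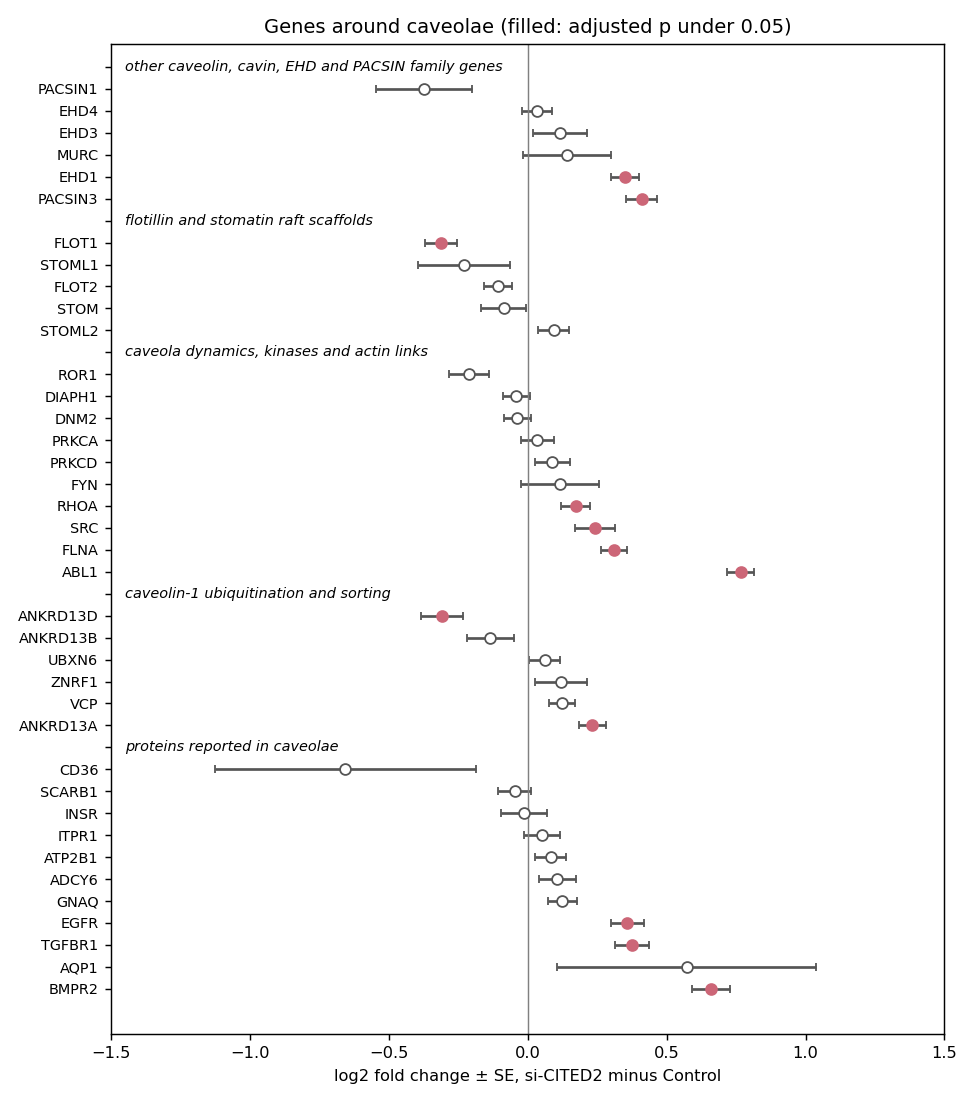
Log2 fold change (si-CITED2 minus Control, horizontal axis) with its standard error for the 38 tested genes around caveolae, by group, filled where the adjusted p was under 0.05. ABL1 (0.77) and BMPR2 (0.66) lie farthest to the right among the filled points, and FLOT1 and ANKRD13D (both -0.31) are the filled points left of 0.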

How the data were processed

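RNA-seq was analysed in 6 PC3 libraries, 3 Control and 3 si-CITED2, grouped by their labels. The authors deposited unnormalized counts by gene symbol, 1 table per library, from SMARTer mRNA-seq libraries of Trizol RNA. The submitters' processing notes name TopHat, edgeR and hg19. The annotation, the counting program and its strand setting are not given in the sources used here, so reads of overlapping genes may have been split. Of 25737 rows, the row with most counts was kept for each of the 24462 symbols, which left out 0.0821% of counts. In R 4.3.3 with edgeR 4.0.16, filterByExpr kept 16314 genes, and libraries were scaled by TMM. Groups were compared without a block by the quasi-likelihood test (glmQLFit, glmQLFTest), since the study used unpaired tests, and p-values were adjusted over all genes by Benjamini-Hochberg at 0.05. The value after ± is the SE for a log2 fold change and the SD for a level. The SE was the log2 fold change divided by the root of the F statistic. Log2 CPM used a prior count of 2. Within a group, no pair of libraries agreed within sampling noise (chi-square over its degrees of freedom at least 2.80). Scripts were tested on simulated data.

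The members and lists were chosen with earlier results of these data known. The rule for named genes took all members, CITED2, list genes past the test with an absolute log2 fold change of at least 0.5 (ABL1 and BMPR2) and the nearest profiles, of which 1 is not reported here. The other list genes, the motifs and the per-kb shares were chosen after their values were seen. Promoters came from RefSeq (GRCh38.p14) and gene positions and exon lengths from GENCODE 29 (GRCh38), matched by symbol or synonym. The files hold no coordinates. Alternatives were DESeq2 1.42.0, plain library sizes, every gene with a count, at least 10 counts in every library, the replicate number as a block, summed rows per symbol, and leaving out each library.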

Additional observations from a re-analysis of the deposited data

How the results depend on the processing

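Each of 14 results was recomputed under 12 alternatives. Of these 168 values, 160 kept their direction and their side of the threshold or stayed within the limits set for counts and for SDPR. The limit for SDPR was its own SD of log2 CPM within the groups. That for counts was wide: a fall from 1319 to 881 genes called lower, without si-CITED2 replicate 2, was still taken as kept. The log2 fold change of SDPR ranged from -1.77 to -1.57 and that of PTRF from 0.20 to 0.29. Leaving out a library gave -0.0808 to 0.0011 for CAV1 (above 0 without Control replicate 1), -0.0543 to 0.0112 for CAV2 (above 0 without si-CITED2 replicate 2), neither past the test, and -0.19 to -0.11 for EHD2. It gave 0.17 to 0.29 for CITED2, which lost its call without Control replicate 1 or 3 or si-CITED2 replicate 1 or 3. With library size in place of TMM, CITED2 was 0.22 (adjusted p = 0.0518 in edgeR). That scaling shifted the median gene by -0.02 and turned the balance of calls, with 1530 genes lower and 1390 higher. The genes called lower numbered 881 to 1328 and those called higher 1135 to 1519 when a library was left out. The cause of these changes was not tested.

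With the replicate number as a block, SDPR was at -1.64, PTRF at 0.24 (adjusted p = 0.00599 in edgeR) and EHD2 at -0.14 (adjusted p = 0.124), and the numbers of genes called were 1154 lower and 1405 higher. The block changed none of the member calls. The deviations of same-numbered libraries from the group means were not related (Pearson's r across genes -0.04, 0.03 and -0.01). The labels give these libraries a shared number only. With 3 libraries per group, such values cannot exclude that same-numbered cultures were handled together. Depth limited PRKCDBP most, with 71 to 127 counts per library. Exon lengths limit the comparison of levels between genes.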
